A study of Homo sapiens with 18 samples.

Results

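The poly(A)-binding proteins studied here were 3 cytoplasmic members of the family (PABPC1, PABPC3 and PABPC4), the nuclear member PABPN1 and a pair of regulators that bind the cytoplasmic proteins, PAIP1 and PAIP2. They were taken by gene symbol as 6 members, and all 6 were found among the 57120 gene symbols of the TruSeq table and among the 44267 of the PLATE-seq table. After genes with few counts were set aside, 6 of 6 were tested in TruSeq, where 17371 genes were tested in all, and 4 of 6 in PLATE-seq, where 8595 were. PABPC3 and PAIP1 were the members left untested in PLATE-seq. PABPC4 had been selected on its lower level in SMARCAL1 knockout cells, in TruSeq clone 1 and in the mean of the PLATE-seq clones. Its values in those comparisons are therefore a description and carry no p-value, whereas the other 5 members were taken by family.

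Counts per gene were available for 18 libraries in 8 groups of MDA-MB-436, a human breast adenocarcinoma line known as triple-negative. The TruSeq libraries, of stranded total RNA, came from SMARCAL1 knockout clone 1 and from a control of genotype Control, with 3 biological replicates each. PLATE-seq, a pooled plate-based assay of messenger RNA, covered SMARCAL1 knockout clones 1, 2 and 3 and their control, and siRNA SMARCAL1 and an siRNA control, with 2 biological replicates each. All cells were grown in the same serum-containing medium, and each knockout line is 1 clone. How the gene was disrupted, how the control of the clones was derived and how long siRNA acted are not given in the sources used here. SMARCAL1 encodes a DNA annealing helicase of the SNF2 family that acts at stalled forks. The titles name MDA-MB-436 throughout, whereas each PLATE-seq sample has a cell line tag of its own, with another number, and all were taken as MDA-MB-436. Levels are CPM, counts scaled to a common library size, as mean ± SD over libraries, and a change is a log2 value with its standard error (SE) from an edgeR quasi-likelihood fit.

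Poly(A)-binding proteins coat the tail of messenger RNAs through RNA recognition motifs. In the cytoplasm PABPC1, the abundant and widely expressed form, contacts the initiation scaffold eIF4G at the cap, the release factor eRF3 and the deadenylases that shorten the tail. PABPC4, also called inducible PABP, is a close paralog of PABPC1 first described in activated T cells. PABPC3 is an intronless gene best known from testis. PABPN1 binds the tail in the nucleus, stimulates poly(A) polymerase and helps to set tail length. PAIP1 resembles part of eIF4G and favours translation, while PAIP2 displaces the cytoplasmic proteins from the tail and represses it.

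TruSeq libraries held 10257584 to 19270648 counts and PLATE-seq libraries 807861 to 3068887 without spike-ins, so that 3 counts, the floor of detection, were 0.165 to 0.278 CPM in TruSeq and 0.911 to 3.72 CPM in PLATE-seq. The TruSeq libraries fell on opposite sides of a split in the number of genes with counts. Clone 1 replicate 1 and control replicates 1 and 2 had 36042 to 39068 such genes, whereas clone 1 replicates 2 and 3 and control replicate 3 had 28621 to 30653. In PLATE-seq the clone 3 libraries were the deepest and the libraries of the control of the clones the shallowest. VIM, the marker of a mesenchymal-like line, stood at 954 to 1392 CPM in TruSeq, while ESR1 and PGR did not exceed 0.969 CPM there and ERBB2 was at 37.3 to 53.5 CPM. The leukocyte markers PTPRC, CD3E and LYZ summed to 0.290 to 3.52 CPM in clone 1 and 0.385 to 2.22 CPM in the control, and the endothelial markers PECAM1, CDH5 and VWF to 0.870 to 7.60 CPM in clone 1 and 1.38 to 6.40 CPM in the control. In PLATE-seq PTPRC, CD3E, CDH5, VWF, ESR1 and PGR were at 0 counts in every library, and LYZ reached 1 count. PECAM1, at 0 to 7 counts per library, made up the endothelial sum. It was at 1.09 to 4.16 CPM in clone 1, 0 to 2.05 in clone 2 and 0 to 0.304 in clone 3, against 0 in the control of the clones. In siRNA SMARCAL1 it was at 0 to 2.72 CPM, against 0 in the siRNA control. The floor of 3 counts was 3.32 and 3.72 CPM in the control of the clones, so a difference cannot be read at this depth. The part of PECAM1 in the results was not tested. SMARCAL1 transcript measured 14.0 CPM in clone 1, against 14.7 CPM in control libraries, in TruSeq. In PLATE-seq it had 3 and 6 counts in clone 1, 8 and 3 in clone 2 and 16 and 44 in clone 3, against 0 and 3 in the control of the clones. That control was at or under the floor of 3 counts, so a lower level in the clones could not have been seen there. These counts are not scaled for depth, which was greatest in clone 3. The siRNA SMARCAL1 libraries had 0 and 0 counts, against 7 and 8 in siRNA control libraries. A disrupted gene can keep its transcript, so these levels do not check the genotype of the clones.

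PABPC4 and PABPC1 were the abundant members, and in TruSeq both stood lower in clone 1 than in the control, as did PAIP2, while PAIP1 stood higher and PABPC3 and PABPN1 overlapped between groups. Levels were also divided by the merged length of all annotated exons of each gene, 4752 bases for PABPC1 and 6782 for PABPC4. That length can exceed that of the transcripts present, so the order of genes per kb depends on it. Before division, the control means were 562 CPM for PABPC4 and 497 CPM for PABPC1. Per kb, levels in clone 1 were 86.7 CPM for PABPC1, 60.2 for PABPC4, 55.6 for PAIP1, 38.7 for PABPN1, 7.31 for PAIP2 and 1.46 for PABPC3. In the control the same order held, with 105, 82.9, 49.4, 39.3, 9.18 and 1.54 CPM per kb. In clone 1, PABPC4 at 57.5 to 62.9 CPM per kb stood just above PAIP1 at 54.2 to 56.5, and the other neighbours in both groups were likewise apart in every library.

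PABPC4 (ENSG00000090621.13, GENCODE 29) lies on the minus strand of chromosome 1 at 39560816 to 39576790 (GRCh38). Its TruSeq levels were 389.8, 427 and 408 CPM in the 3 clone 1 libraries, from 4205, 7354 and 6169 counts. The control libraries were at 542, 552 and 592 CPM, from 6354, 6836 and 10750 counts. The 3 clone 1 libraries all lay below the 3 control libraries. The means were 408 ± 18.4 CPM in clone 1 and 562 ± 26.3 CPM in control libraries (SD, n = 3 each), a log2 change of -0.46 (SE 0.07). In bulk RNA, fewer cells that express a gene and less of its RNA per cell cannot be told apart. The antisense gene AL365277.1, which shares 246 exon bases with PABPC4, held 1 to 3 counts in clone 1 and 1 to 8 counts in the control, and the strand setting of the counting is not given in the sources used here. SNORA55, a small nucleolar RNA within the span of PABPC4 that shares none of its exon bases, measured 1.17 CPM in clone 1, against 1.17 CPM in control libraries.

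PABPC1 (ENSG00000070756.15; chromosome 8, 100685816 to 100722809, minus strand) was at 435, 383 and 417 CPM in clone 1, against 522, 504 and 466 CPM in the control. Every clone 1 library lay below every control library. The means were 412 ± 26.5 CPM in clone 1 and 497 ± 28.4 CPM in control libraries (n = 3 each), and the change of -0.27 (SE 0.08, 95% interval -0.45 to -0.10) did not pass the threshold, with an edgeR adjusted p of 0.0772. DESeq2 gave an adjusted p of 0.0183 for the same difference, the replicate number as a block gave 0.0158, and the side of the split by genes detected as a term gave 0.00173. The side term was chosen after seeing the data. PABPC1 passed in 4 of 9 other settings and did not pass in 5. Without any 1 of the 6 libraries it did not pass either, at edgeR adjusted p of 0.0630 to 0.267. The microRNA gene MIR7705, which lies within PABPC1 exons on the same strand, was at 9.55 to 13.8 CPM in clone 1, against 12.6 to 18.7 CPM in control libraries. With PABPC3 and the annotated PABPC1 pseudogenes added to PABPC1, the change was -0.27. The added genes held few counts, PABPC3 being at 4.95 CPM in clone 1 against 412 CPM of PABPC1, so the sum could barely alter the change. PABPC3 (ENSG00000151846.8; chromosome 13, 25095868 to 25099254, plus strand) was low, with 60 to 78 counts in clone 1 and 59 to 93 in the control. Its levels of 4.95 ± 0.542 CPM in clone 1 and 5.21 ± 0.241 CPM in control libraries overlapped (-0.08, SE 0.16, edgeR adjusted p = 0.827). Since 6.77% of the stretches of 50 bases of PABPC3 transcripts also occur in PABPC1 transcripts, part of these few counts cannot be placed with certainty.

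PABPN1 (ENSG00000100836.10; chromosome 14, 23321289 to 23326185, plus strand), the nuclear member, was at 177, 133 and 141 CPM in clone 1, against 161, 154 and 142 CPM in the control. The groups overlapped, with the highest and the lowest value both in clone 1. The change was -0.02 (SE 0.11, edgeR adjusted p = 0.944, 95% interval -0.27 to 0.23). The read-through gene BCL2L2-PABPN1 shares 653 of its exon bases with PABPN1 and followed it, at 132 CPM in clone 1 and 133 CPM in control libraries. Whether a read was counted for both genes is not given in the sources used here.

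Of the regulators, PAIP2 (ENSG00000120727.12; chromosome 5, 139341587 to 139369720, plus strand), the repressor, fell in clone 1. It measured 23.2, 22.3 and 23.8 CPM in clone 1, against 29.7, 29.1 and 28.2 CPM in control libraries, with no overlap. The change was -0.33 (SE 0.08, edgeR adjusted p = 0.0479). The call sat close to the threshold and was lost when any 1 of the 6 libraries was left out, with adjusted p from 0.0785 to 0.192. It was also lost in 5 of 8 other settings, at 0.0691 with DESeq2 and up to 0.304 with no filter, and held in the other 3, at 0.00802 with the side of the split by genes detected as a term. The antisense gene AC135457.1, which shares 664 exon bases with PAIP2, held 0 to 2 counts in clone 1 and 0 to 4 in the control. PAIP1 (ENSG00000172239.13; chromosome 5, 43526267 to 43557758, minus strand), the activator, was at 192, 184 and 191 CPM in clone 1, against 170.3, 164 and 168 CPM in the control. These groups did not overlap either. The change of 0.17 (SE 0.06) did not pass the threshold, with an edgeR adjusted p of 0.137. With the side of the split by genes detected as a term, a setting chosen after seeing the data, it passed, at 0.0111. It did not pass in the other 7 settings. Nor did it pass without any 1 of the 6 libraries, at edgeR adjusted p of 0.186 to 0.424. Of the stretches of 50 bases of PAIP1 transcripts, 22.3% also occur in AC026271.1, which measured 13.4 CPM in clone 1, against 12.4 CPM in control libraries.

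**Figure D1:**
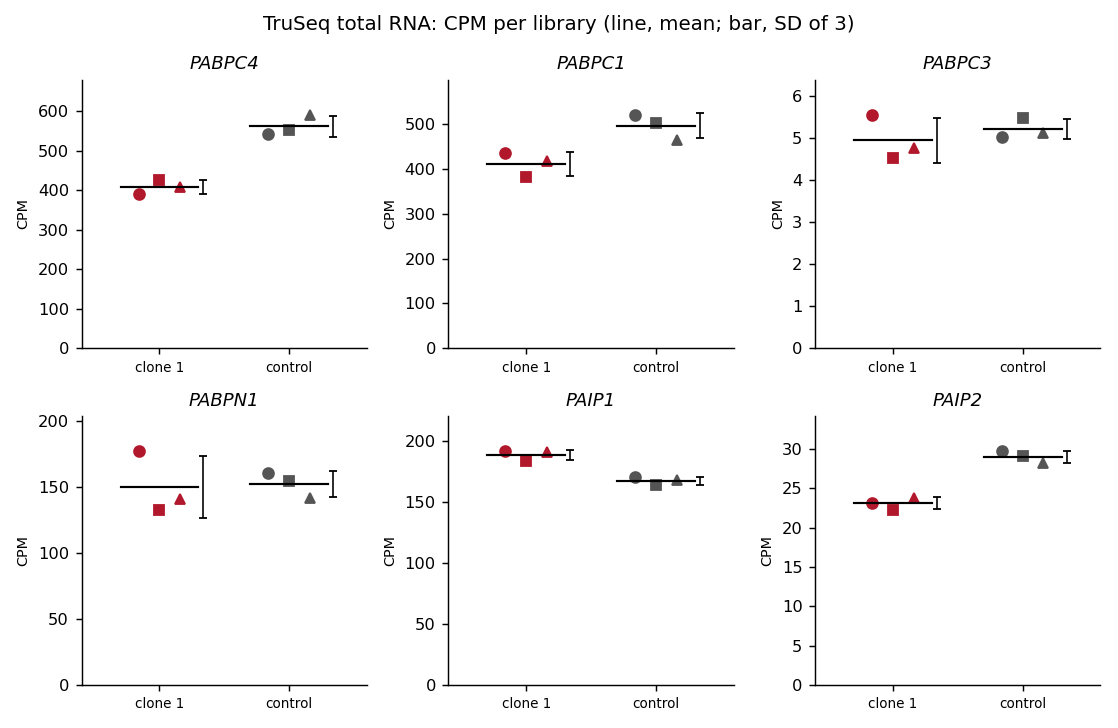
Levels of the 6 members in each TruSeq library, in CPM on a linear axis from 0, for SMARCAL1 knockout clone 1 and the control; markers stand for replicates 1 to 3, the line is the mean and the bar the SD. PABPC4 lies at 389.8 to 427 CPM in clone 1 and 542 to 592 CPM in the control, PABPC1 and PAIP2 are also lower in all 3 clone 1 libraries, PAIP1 is higher, and PABPC3 and PABPN1 overlap.

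Against the whole table, the counts of members were as follows. In TruSeq 3 of 6 members had every clone 1 library below every control library, where 12.7% of all tested genes did, and PABPC4 was picked for that. The other such members were PABPC1 and PAIP2. The reverse held for 1 of 6, PAIP1, against 13.6% of all tested genes. Beside PABPC4, 1 of the 5 other members, PAIP2, was past an adjusted p of 0.05. Of all tested genes 401 passed in that direction, or 2.31%, and 688 in the other, or 3.96%.

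Whether PABPC4 moved apart from PABPC1 was also read within each library, from the ratio of their counts, which does not depend on library scaling. In TruSeq there were 0.896, 1.11 and 0.979 PABPC4 counts per PABPC1 count in clone 1, against 1.04, 1.10 and 1.27 in the control. The groups overlapped. The mean log2 ratio was -0.01 ± 0.16 in clone 1 and 0.18 ± 0.15 in the control (SD, n = 3 each). Within each side of the split by genes detected, clone 1 was lower, with 0.896 in clone 1 against 1.04 and 1.10 in the control among the libraries with most genes, and 1.11 and 0.979 in clone 1 against 1.27 in the control among those with fewest. The split was chosen after seeing the data and leaves 1 library in a group on each side. PABPC4 was also picked for its lower level in these libraries, so this order is a description only. Summed per kb, the 3 cytoplasmic members were at 151, 145 and 149 CPM per kb in clone 1, against 191, 189 and 187 CPM per kb in the control. PABPC4 made up 38.1, 43.4 and 40.3% of that sum in clone 1 and 41.8, 43.1 and 46.7% in the control, with overlap. The size of these shares depends on the exon lengths used. In TruSeq, then, PABPC4 and PABPC1 were both lower in clone 1, and their ratio did not separate the groups.

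In PLATE-seq PABPC4 was lower in all 6 libraries of the 3 clones than in both libraries of their control, and no other tested member was. It was at 80.2 and 95.0 CPM in clone 1, 90.5 and 107 CPM in clone 2 and 66.2 and 51.3 CPM in clone 3, from 87 to 174 counts per library. The control of the clones was at 275 and 171 CPM, from 249 and 138 counts. Each clone library thus lay below the lower control library, and the control libraries differed from each other by more than the pair of libraries of any clone. The log2 change was -1.35 (SE 0.33) in clone 1, -1.18 (SE 0.34) in clone 2 and -1.93 (SE 0.34) in clone 3, and -1.49 (SE 0.25) for the mean of the clones. Without control replicate 1 the mean change was -1.09. Of all genes tested, 5.48% had every clone library below both control libraries, and for the mean of the clones 17 of 8595, or 0.198%, passed an adjusted p of 0.05, 13 of them, or 0.151%, in that direction. Both libraries of a clone were below both control libraries for 18.4% of all tested genes in clone 1, 18.8% in clone 2 and 19.3% in clone 3. PABPC4 was picked in this contrast.

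The control of the clones stood apart from the other control for PABPC4. The siRNA control libraries were at 108 and 91.9 CPM, beside 51.3 to 107 CPM in the 6 clone libraries, while the control of the clones was at 275 and 171 CPM. Against the control of the clones, the siRNA control differed by -1.16 (SE 0.33), with both libraries lower, as for 17.1% of all tested genes. That was close in size to the changes of clones 1 and 2. PABPC4 was picked against these same control libraries, so the difference is not independent of the choice and is a description. Set against the siRNA control, the mean of the clones differed by -0.32 (SE 0.27), and the libraries overlapped. From low to high, group means of PABPC4 were 58.8 ± 10.5 CPM in clone 3, 70.7 ± 28.7 in siRNA SMARCAL1, 87.6 ± 10.5 in clone 1, 98.5 ± 11.4 in clone 2, 99.9 ± 11.2 in the siRNA control and 223 ± 73.7 in the control of the clones (SD, n = 2 each). Libraries of neighbours in that order overlapped, except between the siRNA control and the control of the clones. Library size differed between groups as well. Clone 3, lowest in mean PABPC4, held 2411594 and 3068887 counts, and the control of the clones, highest, held 890402 and 807861. Clone 2, with 920828 and 960428 counts, was close in depth to that control, at a mean of 98.5 CPM against 223 CPM. The part of library size in the result was not tested.

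siRNA gave the comparison in which PABPC4 had not been picked. PABPC4 was at 50.4 and 91.0 CPM in siRNA SMARCAL1 libraries, from 74 and 92 counts, against 108 and 91.9 CPM in siRNA control libraries, from 123 and 131 counts. Both siRNA SMARCAL1 libraries were below both siRNA control libraries, replicate 2 by a margin of about 1 CPM, and 19.2% of all tested genes showed the same order. The change was -0.51 (SE 0.34, edgeR adjusted p = 0.877), with a 95% interval of -1.21 to 0.19, which includes both 0 and the TruSeq value of -0.46. Of the PLATE-seq knockout changes, the interval includes -1.18 of clone 2. It does not include -1.35 of clone 1, -1.93 of clone 3 or -1.49 of the mean of the clones. The knockout changes carry errors of their own, so the interval does not test whether siRNA and knockout differ. Those TruSeq and knockout values come from the libraries in which PABPC4 was picked. Without siRNA SMARCAL1 replicate 1 the siRNA change was -0.14, and without replicate 2 it was -0.98. No gene of 8595 passed the threshold in this comparison (0.00%), where 544 genes, or 6.33%, had an unadjusted edgeR p under 0.05 and DESeq2 called 13. The effect of knockout minus that of siRNA was -0.98 (SE 0.43) for PABPC4, a difference that contains the contrast in which it was picked.

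PABPC1, by contrast, overlapped its control in clones 2 and 3. It was at 358 and 297 CPM in clone 1, 722 and 403 CPM in clone 2 and 563 and 549.6 CPM in clone 3, against 494 and 626 CPM in the control of the clones. Clone 1 lay below both control libraries. The change was -0.77 (SE 0.34) in clone 1, with an edgeR adjusted p of 0.534, and 0.01 (SE 0.34) and -0.01 (SE 0.34) in clones 2 and 3. That order in clone 1 was shared by the 18.4% of genes given above. The mean change of the clones was -0.26 (SE 0.27, edgeR adjusted p = 0.805). An F test of differences among the clones gave edgeR adjusted p of 0.452 for PABPC1 and 0.536 for PABPC4, where 0.710% of all tested genes passed. With siRNA SMARCAL1 PABPC1 was at 182 and 514 CPM, against 623 and 533 CPM in the siRNA control, a change of -0.74 (SE 0.34, edgeR adjusted p = 0.753). Both siRNA SMARCAL1 libraries lay below both siRNA control libraries, as for PABPC4. The same order held for PAIP2, and thus for 3 of the 4 tested members, where 19.2% of all tested genes showed it. A single library, siRNA SMARCAL1 replicate 1, held the lowest level of PABPC1 and of PABPC4 in the assay. Without it the PABPC1 change was -0.17, and without replicate 2 it was -1.67.

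**Figure D2:**
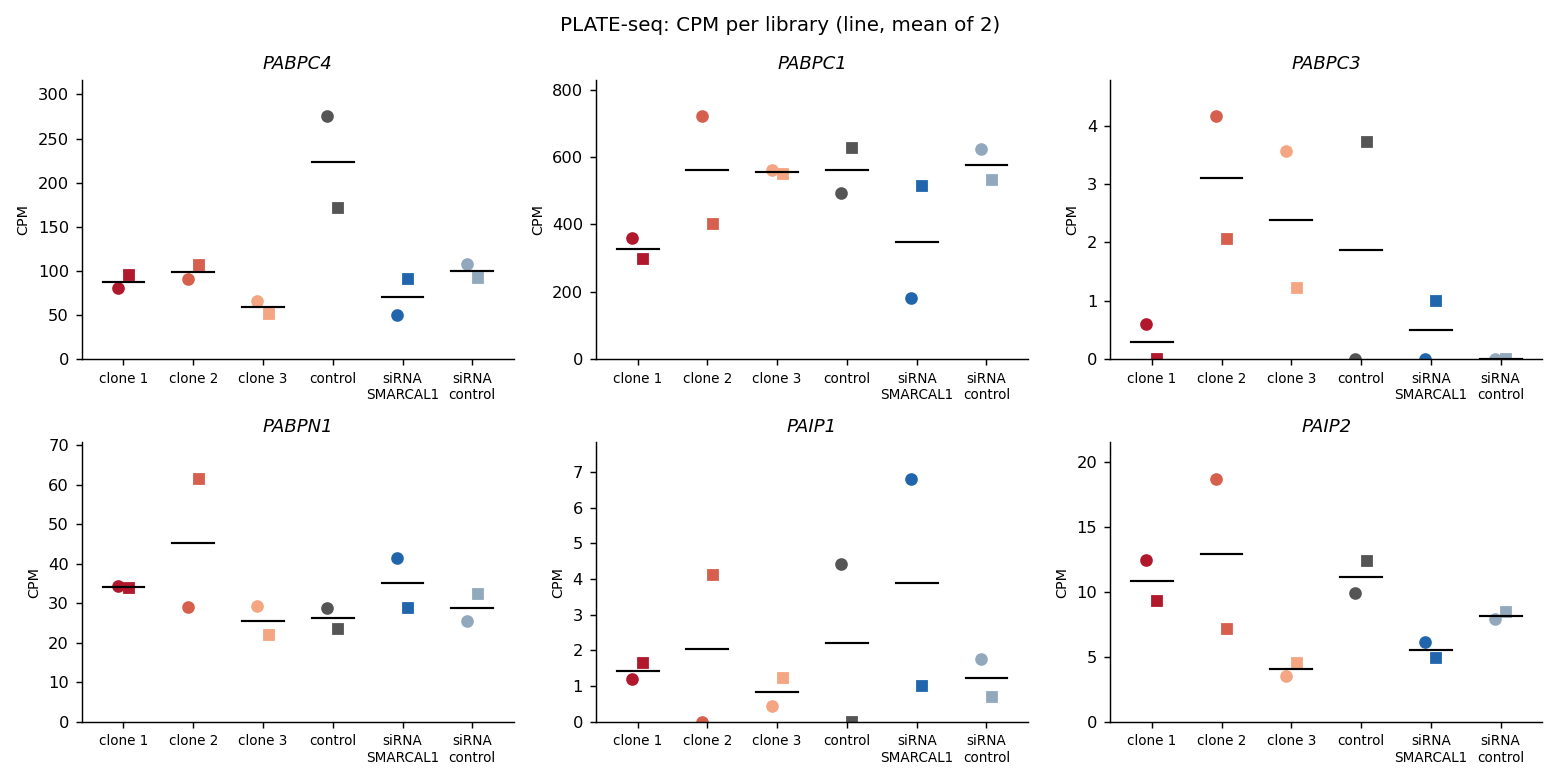
Levels of the 6 members in each PLATE-seq library, in CPM on linear axes from 0, for the 3 SMARCAL1 knockout clones, their control, siRNA SMARCAL1 and the siRNA control; markers stand for replicates 1 and 2 and the line is the mean. PABPC4 is at 51.3 to 107 CPM in the clones and 171 to 275 CPM in their control, while the siRNA control, at 91.9 to 108 CPM, lies with the clones.

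The PABPC4 to PABPC1 ratio in PLATE-seq was 0.224 and 0.320 in clone 1, 0.125 and 0.265 in clone 2 and 0.118 and 0.0934 in clone 3, against 0.557 and 0.273 in the control of the clones. Clones 2 and 3 lay below both control libraries, and clone 1 overlapped them. The ratio was 0.277 and 0.177 in siRNA SMARCAL1, both above the 0.173 and 0.173 of the siRNA control. PLATE-seq ratios were below those of TruSeq in every library. The assays count different stretches of a transcript, so the ratio is comparable within an assay only.

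**Figure D3:**
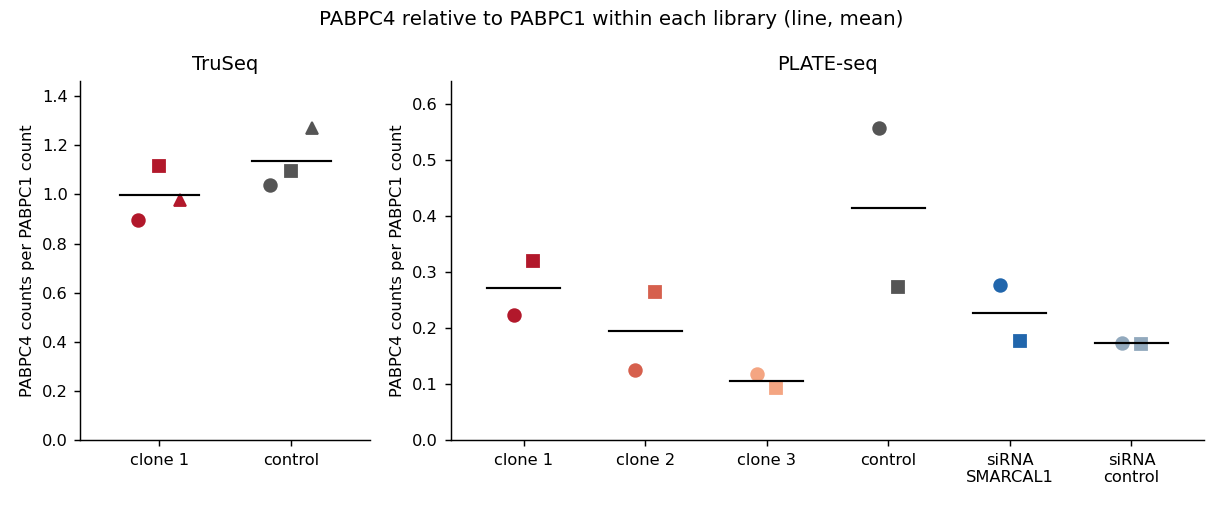
PABPC4 counts per PABPC1 count in each library, in TruSeq (left) and PLATE-seq (right), on linear axes from 0 with different ranges; markers stand for replicates and the line is the mean. In TruSeq clone 1 spans 0.896 to 1.11 and the control 1.04 to 1.27, and in PLATE-seq clone 3 is lowest at 0.0934 and 0.118 and control replicate 1 highest at 0.557.

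The remaining members passed no test in PLATE-seq. PABPN1 was at 34.5 and 33.9 CPM in clone 1, 29.1 and 61.5 CPM in clone 2 and 29.3 and 21.9 CPM in clone 3, against 28.8 and 23.6 CPM in the control of the clones. Clones 1 and 2 lay above both control libraries, as 20.8% and 19.5% of all tested genes did, and clone 3 overlapped them. The mean change was 0.38 (SE 0.39, edgeR adjusted p = 0.799). With siRNA SMARCAL1 it was at 41.5 and 28.7 CPM, against 25.4 and 32.3 CPM in the siRNA control (0.29, SE 0.45, edgeR adjusted p = 0.956). BCL2L2-PABPN1 held 0 counts in all 12 PLATE-seq libraries.

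PAIP2 rested on 5 to 21 counts per PLATE-seq library. It was at 12.5 and 9.28 CPM in clone 1, 18.7 and 7.17 CPM in clone 2 and 3.55 and 4.55 CPM in clone 3, against 9.95 and 12.4 CPM in the control of the clones. Clone 3 was lower in both libraries, at a log2 change of -1.43 (SE 0.81, edgeR adjusted p = 0.507), an order shared by the 19.3% given above. The mean change of the clones was -0.42 (SE 0.65, adjusted p = 0.880), with an interval of -1.76 to 0.92 that includes the TruSeq value. With siRNA SMARCAL1 PAIP2 was at 6.12 and 4.94 CPM, against 7.89 and 8.42 CPM in the siRNA control (-0.54, SE 0.83, edgeR adjusted p = 0.956). PABPC3 held 0 to 8 counts per PLATE-seq library and 0 in 5 of 12, and PAIP1 held 0 to 10 and 0 in 2 of 12. Neither could be compared between groups at this depth. PAIP1, at 163.7 to 192 CPM in TruSeq, was close to the floor of detection in PLATE-seq.

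**Figure D4:**
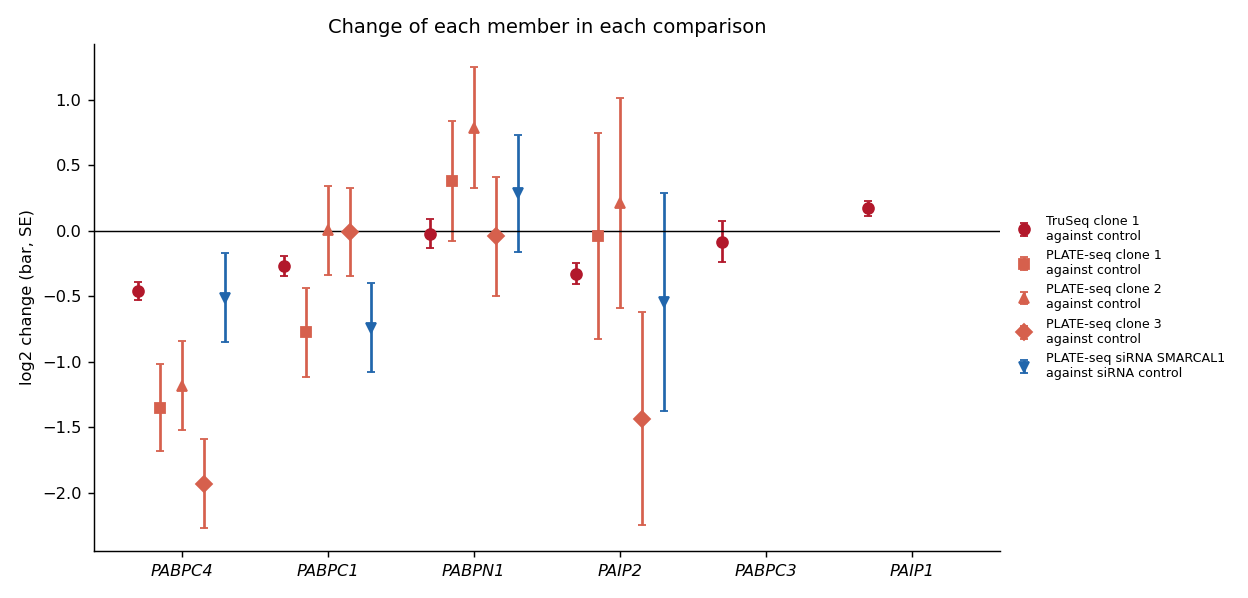
Log2 change of each member in each comparison, with bars of 1 SE, from TruSeq clone 1 (left in each cluster) through PLATE-seq clones 1 to 3 to siRNA SMARCAL1 against siRNA control. PABPC4 is below 0 in all 5 comparisons, from -1.93 to -0.46. It was picked for its lower level in TruSeq clone 1 and in the mean of the clones, so only the siRNA comparison is free of that choice. The 3 clones share 1 control, and PABPC3 and PAIP1 have a value in TruSeq only.

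The proteins that work with the poly(A) tail were described by 6 lists of 87 genes. In TruSeq 82 were tested, 2 rose and 2 fell in clone 1, against the 3.96% higher and 2.31% lower of all tested genes. These counts were near or under those shares, so the lists did not stand out in number of calls. The median change was -0.06, beside -0.0044 over all tested genes. The genes that fell were both subunits of cleavage factor Im, which chooses the site of cleavage and tail addition. NUDT21, its RNA-binding subunit, measured 146, 147 and 148 CPM in clone 1, against 196, 195 and 197 CPM in control libraries (-0.42, SE 0.06, edgeR adjusted p = 0.00508). CPSF7, a larger subunit, measured 69.5, 65.9 and 65.3 CPM in clone 1, against 95.7, 89.2 and 83.6 CPM in control libraries (-0.42, SE 0.07, edgeR adjusted p = 0.0153). CPSF6, the alternative large subunit, measured 144 CPM in clone 1, against 145 CPM in control libraries (-0.02, edgeR adjusted p = 0.943). The NUDT21 call was lost without control replicate 2 (adjusted p = 0.0569), and that of CPSF7 without any 1 of 4 libraries (control replicates 1 and 2, clone 1 replicates 2 and 3), at up to 0.0931, and with library totals as the only scaling, at 0.0584.

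The genes that rose were EIF4E2 and BTG1. EIF4E2, a cap-binding homolog of eIF4E tied to translational repression, measured 77.4, 78.3 and 81.0 CPM in clone 1, against 64.1, 66.7 and 66.4 CPM in control libraries (0.26, SE 0.06, edgeR adjusted p = 0.0478). BTG1, which links deadenylases to PABPC1, measured 11.1, 11.7 and 12.1 CPM in clone 1, against 8.36, 8.72 and 7.71 CPM in control libraries (0.50, SE 0.12, edgeR adjusted p = 0.0409). The groups did not overlap for either gene. The EIF4E2 call was lost without any 1 of the 6 libraries, at adjusted p of 0.0620 to 0.209, and in 4 of 8 other settings, at up to 0.253. That of BTG1 held without clone 1 replicate 1, at 0.0479, and was lost without any 1 of the other 5, at 0.0954 to 0.159, and in 4 of 8 other settings, at up to 0.371.

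Genes fixed by their role did not pass. Among initiation and termination partners, EIF4E, the cap-binding protein, changed by -0.16, EIF4G1, the scaffold that contacts PABPC1, by -0.13 and GSPT1, which encodes eRF3a, by -0.01, with edgeR adjusted p of 0.244, 0.361 and 0.951. Of the deadenylation genes, CNOT7, a catalytic subunit of CCR4-NOT, measured 195 CPM in clone 1, against 227 CPM in control libraries (-0.23, SE 0.06, edgeR adjusted p = 0.0566). PAN3, the adaptor that brings the PAN2 nuclease to PABPC1, changed by 0.09 and TOB1, an adaptor of CCR4-NOT, by -0.18, with edgeR adjusted p of 0.506 and 0.489. EEF1A1, an elongation factor whose messenger RNA carries the 5′ oligopyrimidine tract that PABPC1 mRNA also has, changed by -0.04, and 0 of the 12 listed messenger RNAs of that class were past the threshold in edgeR, where 2 had an unadjusted p under 0.05, a level that 20.4% of all tested genes reached. Of 9 further relatives of the members, PABPC4L, PABPC5, PABPC1L2A, PABPC1L2B and PABPN1L were left untested, at 0 to 4 counts per TruSeq library. The other 4 were tested, with 0 past the threshold and 2 at an unadjusted p under 0.05. Those 2 were PABPC1L, a paralog known from oocytes, at 4.33 CPM in clone 1 and 6.59 CPM in control libraries (-0.62, SE 0.23, edgeR adjusted p = 0.165), and PAIP2B, a second repressor, at 6.37 CPM in clone 1 and 8.24 CPM in control libraries (-0.37, SE 0.13, edgeR adjusted p = 0.139).

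In PLATE-seq 70 of the 87 listed genes were tested. For the mean of the clones 0 passed in edgeR, with 10 at an unadjusted p under 0.05, where 10.1% of all tested genes were, and the median change was -0.01, the same as over all tested genes. For siRNA SMARCAL1 0 passed, with 3 at an unadjusted p under 0.05, and the median was -0.08, beside -0.02 over all tested genes. In the single clones 0 passed in clones 1 and 2 and 1 rose in clone 3, against 0.303% of all tested genes. It was CPSF1, the largest subunit of the cleavage and polyadenylation specificity factor, at 447 and 474 CPM in clone 3, against 164 and 212 CPM in the control of the clones (1.30, SE 0.30, edgeR adjusted p = 0.0391). That call was lost without control replicate 1, control replicate 2 or clone 3 replicate 2, at adjusted p of 0.311, 0.107 and 0.222. NUDT21 changed by -0.04 (SE 0.23) for the mean of the clones and by -0.02 (SE 0.29) with siRNA, CPSF7 by -0.06 (SE 0.34) and 0.39 (SE 0.40), EIF4E2 by -0.09 (SE 0.29) and 0.73 (SE 0.36) and BTG1 by 0.23 (SE 0.93) and 0.83 (SE 1.08). None of these 4 genes passed the threshold in either comparison.

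**Figure D5:**
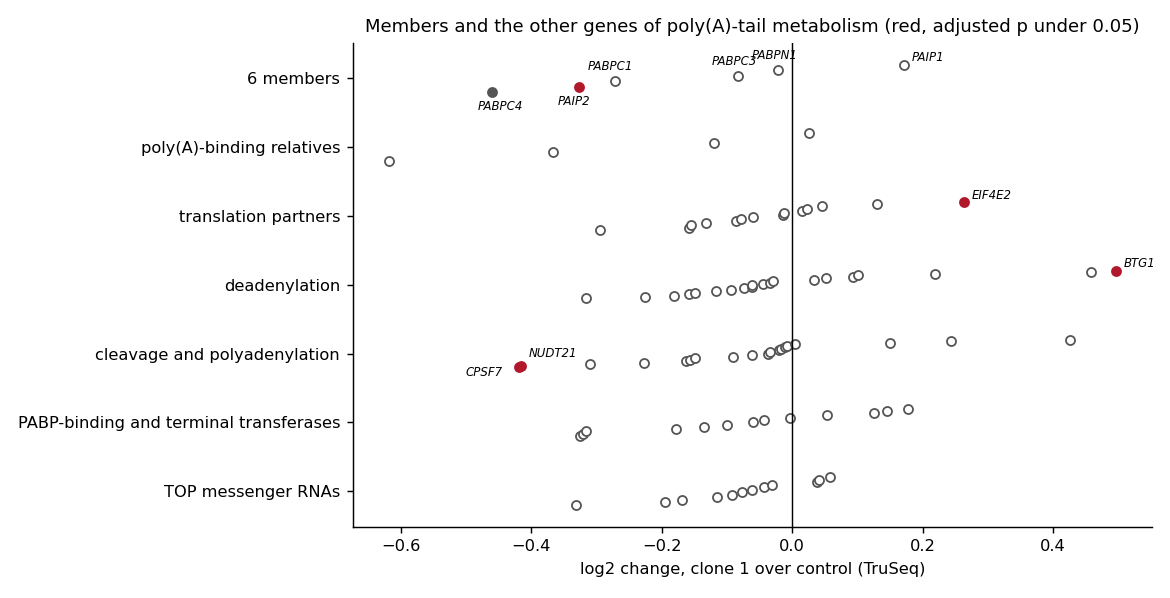
Log2 change in TruSeq, clone 1 over control, of the 6 members (top) and of the 82 tested genes of the 6 poly(A)-tail lists, 1 point per gene. Red points have an edgeR adjusted p under 0.05 (PAIP2 at -0.33, NUDT21 and CPSF7 at -0.42, EIF4E2 at 0.26 and BTG1 at 0.50), and the filled grey point is PABPC4 at -0.46, which was picked in this contrast and is not tested.

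The genes whose level followed PABPC4 most closely were sought among 3731 genes tested in both assays with a mean of at least 20 CPM in each, by the smaller of the Pearson r over the 6 TruSeq and over the 12 PLATE-seq libraries of log2(CPM + 2). They were NAV1 (0.88 and 0.91), a microtubule-associated protein; RBM28 (0.85 and 0.93), a nucleolar RNA-binding protein; RAB3B (0.96 and 0.85), a GTPase of secretory vesicles; WNK1 (0.96 and 0.84), a kinase; SSRP1 (0.99 and 0.82), a subunit of the histone chaperone FACT; and ANKRD11 (0.81 and 0.84), a nuclear ankyrin-repeat protein. These are descriptions across libraries that share their groups and assay. For PABPC1 the r with PABPC4 was 0.75 in TruSeq and 0.35 in PLATE-seq, and for PABPN1 -0.10 and -0.11. The 6 were chosen for following PABPC4 in these libraries, so a group pattern like that of PABPC4 follows from the choice, and their group levels are not given.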

How the data were processed

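Raw counts per gene symbol were deposited by the authors, who aligned reads to hg38 with STAR and counted them with HTSeq, per the submitters' processing notes. No version, annotation release or strand setting is given in the sources used here. The 92 spike-in entries of the PLATE-seq table were left out. Each assay was fitted alone in R 4.3.3 with edgeR 4.0.16 (filterByExpr, TMM, quasi-likelihood F test, group as the only term), with all 12 PLATE-seq libraries in 1 fit. Two-sided p-values were corrected over the whole table (Benjamini-Hochberg) and called under 0.05. SE was taken as the size of the log2 change over the root of F. DESeq2 1.42.0 was an alternative. Floors of 3 counts cover counting error only. All p-values measure the spread between the libraries that the labels call biological replicates. Replicates differed by more than counting noise, with a chi-square per degree of freedom of at least 6.30. Scripts were tested on simulated counts. Coordinates, exon lengths and shared stretches of 50 bases came from GENCODE 29 on GRCh38.

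The members, the poly(A)-tail lists and the tests were chosen with earlier results of these data known, and 1 fit on each whole table gave every change. Text names the members, their near-copies other than single pseudogenes, and genes with overlapping exons. It also names listed genes past the threshold in the TruSeq, mean knockout or siRNA comparison, 7 listed genes by role, and the 6 genes most like PABPC4. CPSF6, CPSF1 and PAIP2B were named after their values were seen. No sequence is shown. A further leukocyte marker chosen at the start is not reported here.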

Additional observations from a re-analysis of the deposited data

How the results depend on the processing

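PABPC4 kept its sign in every alternative run. In TruSeq its change was -0.49 to -0.42 without single libraries and -0.51 to -0.44 under the other settings. For the mean of the clones it was -1.78 to -1.09 without single libraries and -0.32 with the siRNA control as reference. Without single libraries it was -1.64 to -0.95 in clone 1, -1.48 to -0.80 in clone 2, -2.22 to -1.53 in clone 3 and -0.98 to -0.14 with siRNA. The genes called in TruSeq numbered 1089, against 199 to 1145 without single libraries. For the mean of the clones they numbered 17, against 5 to 52 without single libraries, 83 with no filter and 53 with DESeq2. For siRNA they numbered 0, against 0 to 2 without single libraries, 22 with no filter, 13 with DESeq2 and 1 in the siRNA libraries alone. The cause was not tested.

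Some signs turned, also for changes of up to -0.42 (PAIP2, mean of the clones). PABPN1 in TruSeq was -0.15 to 0.061 without single libraries, and with siRNA -0.015 to 0.52. PAIP2 for the mean of the clones was 0.027 with the siRNA control as reference, and without single libraries -0.25 to 0.17 in clone 1 and -0.62 to 0.73 in clone 2. PABPC1 in clone 2 was -0.0046 with DESeq2 size factors in edgeR, -0.00097 with no filter, -0.0047 with DESeq2 and -0.47 to 0.35 without single libraries. PABPC1 in clone 3 was 0.040 with no filter and -0.16 to 0.18 without single libraries, and PABPN1 in clone 3 0.0083 and -0.26 to 0.17.

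Same-numbered TruSeq libraries correlated at 0.58, -0.27 and 0.38 in their deviations, so the numbers were not taken as pairs. In PLATE-seq such correlations between a group and its control were -0.026 to 0.024. Spike-ins there made up 0.0230 to 0.0534% of counts in replicate 1 libraries and 0.000205 to 0.00136% in replicate 2 libraries. The reason for that difference between replicate numbers was not tested. With the replicate block the TruSeq calls numbered 2387, PABPC1 changed by -0.27 (edgeR adjusted p = 0.0158), and PABPC4 by -1.49 for the mean of the clones and by -0.51 with siRNA. Alternatives chosen after seeing the data used the split by genes detected. In the 3 libraries with most genes PABPN1 was 0.16 and PABPC3 0.070, in the 3 with fewest the calls numbered 2517, and with the side as a term 3793, with PABPN1 at 0.055, PABPC1 at -0.23 (edgeR adjusted p = 0.00173) and PAIP1 at 0.17 (edgeR adjusted p = 0.0111). PABPC3 and PAIP1 were compared in PLATE-seq under no setting, and sums with near-copies were run in TruSeq only. Scaled by library totals alone, the median of all genes moved to -0.11 with siRNA, against -0.02 in the main scaling, and PABPC4 to -0.61. In clone 2 the calls were then 3 higher and 2 lower, against 1 and 2.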
